A study of Homo sapiens with 4 samples.

Results

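ZC3H11A, the gene ZBED6 that lies inside it, and 8 genes of the TREX pathway of mRNA export (ALYREF, THOC1, THOC2, THOC3, THOC5, THOC7, DDX39B and NXF1) were followed in RNA sequencing of SH-SY5Y cells. These 10 genes, of 58243 listed in the tables, were taken by symbol. They were selected on measured values, the SNP-against-control differences of these same libraries, so their differences between groups are given as a description with no test. SH-SY5Y is an established human neuroblastoma line. The control group was 2 libraries of untreated cells (control a and control b), and the other group was 2 libraries of cells exposed for 8 h to sodium nitroprusside, a nitric oxide donor (SNP a and SNP b; the compound is written SNP below). The labels do not give the sequenced dose and call the RNA of the SNP group oxidized without describing a step that selects such RNA. The treatment text speaks of cells differentiated with retinoic acid and the growth text does not mention that agent, so the state of both groups in this respect is not settled by the labels.

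In the nucleus, a finished mRNA is packed by TREX, a complex built from the THO subunits, the RNA helicase DDX39B and adaptors such as ALYREF. The adaptors hand the mRNA to NXF1, the receptor that carries it through the nuclear pore. ZC3H11A, a CCCH zinc finger protein, binds RNA and associates with TREX, and is known for a role in mRNA export under stress. ZBED6 is a transcription factor derived from a DNA transposon that was inserted in the ZC3H11A gene, and it is best known as a repressor of IGF2.

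ZC3H11A and ZBED6 are separate proteins counted over nearly the same RNA. In GENCODE 29 on GRCh38, the ZC3H11A row (ENSG00000058673) covers chr1:203795654-203854999 and the ZBED6 row (ENSG00000257315) covers chr1:203795714-203854999, both on the plus strand. Their coding sequences are far apart. The ZBED6 protein of 979 codons is read from 1 exon that starts at position 203797523, and the ZC3H11A protein of 810 codons starts 19.5 kb further on, at position 203817071, and is spread over 16 exons. The first 60 coding bases of each, from the GENCODE 29 transcripts, show that these are different proteins, with the start codon in capitals.
ZBED6: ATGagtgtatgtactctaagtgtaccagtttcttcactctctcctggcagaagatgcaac
ZC3H11A: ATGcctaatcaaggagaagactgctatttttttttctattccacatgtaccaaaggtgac

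Both of these sequences lie in exons of both rows. Exonic bases common to both rows number 11983, which is 93.6% of the 12798 exonic bases of the ZC3H11A row and 96.0% of the 12481 of the ZBED6 row. All 2430 coding bases of ZC3H11A lie inside exons of the ZBED6 row, and all 2937 coding bases of ZBED6 lie inside exons of the ZC3H11A row. The longer ZBED6 transcript (ZBED6-202, 12481 bases) holds the coding sequence of ZC3H11A whole, and the ZC3H11A transcript ZC3H11A-214 (11825 bases) holds that of ZBED6 whole. The shorter of the ZBED6 row's transcripts, ZBED6-201, has a coding sequence equal to that of ZC3H11A-201. Only 815 exonic bases belong to the ZC3H11A row alone, in 5 segments, and 498 to the ZBED6 row alone, in a segment near the gene start. Of the 75-base stretches that reads of the labelled length could cover, 86.9% in ZC3H11A transcripts and 95.4% in ZBED6 transcripts occur in both. The sources used here do not state how the authors' counting assigned reads that fit both rows.

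**Figure D1:**
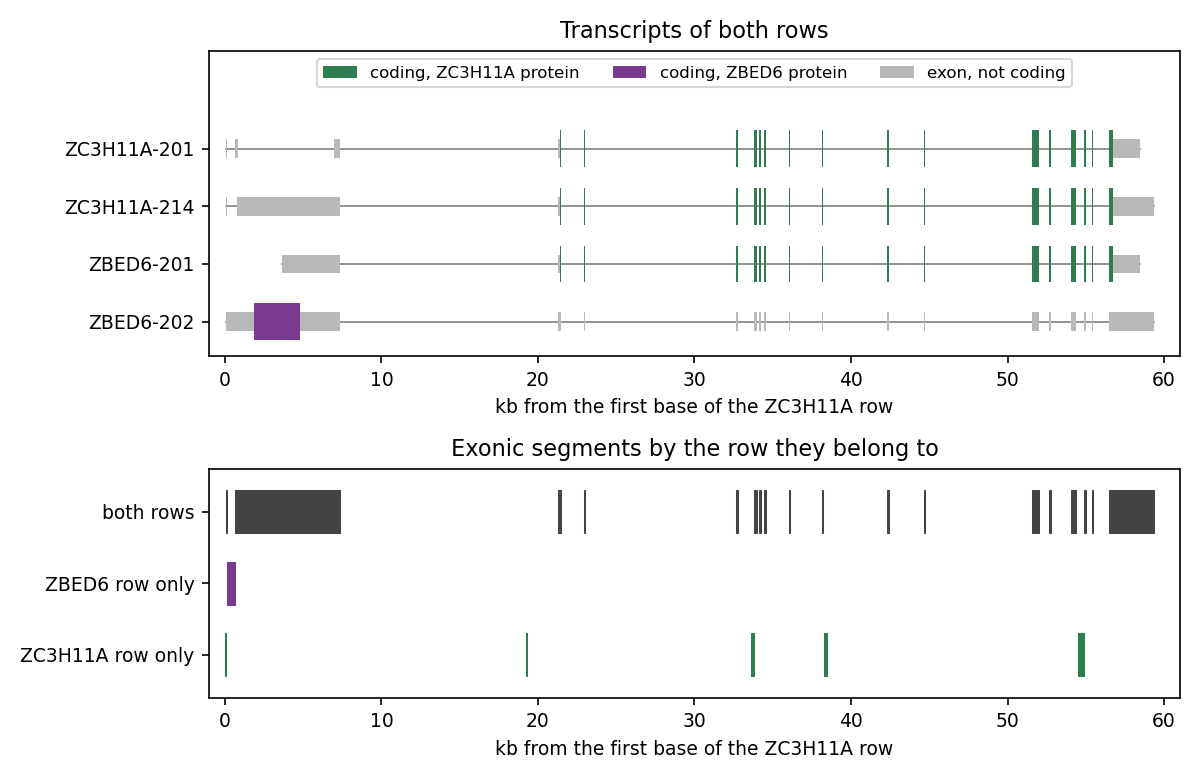
Exons of 4 transcripts (top; tall boxes coding, low boxes not coding) and exonic segments by the row that holds them (bottom), with the position in kb from the first base of the ZC3H11A row on the x axis. The segments held by both rows add up to 11983 bases, against 815 held by the ZC3H11A row alone and 498 by the ZBED6 row alone.

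The rows also begin together. RefSeq's promoter windows (GRCh38.p14, 250 bases before to 50 after the annotated start) held entries for 9 of the 10 genes, and the window of ZC3H11A is also a window of ZBED6. It is shown because it precedes the transcripts of both genes, to 30 bases past the start (chr1:203795373-203795652, plus strand), with motif letters in capitals.
ZC3H11A and ZBED6: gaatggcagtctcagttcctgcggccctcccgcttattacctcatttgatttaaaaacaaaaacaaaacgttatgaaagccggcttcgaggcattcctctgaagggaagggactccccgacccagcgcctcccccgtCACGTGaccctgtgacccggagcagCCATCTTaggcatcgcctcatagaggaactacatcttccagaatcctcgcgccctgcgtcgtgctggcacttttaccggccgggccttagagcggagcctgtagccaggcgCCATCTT

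The capitals mark the E-box CACGTG, found 1 time, and the core AAGATGG of the factor YY1, found 2 times in its reverse complement. Each motif was searched on both strands. CACGTG occurred in 7.26% of all 35116 RefSeq windows of this length, AAGATGG in 5.84%, and at least 2 copies of AAGATGG in 0.271%. A second ZBED6 window, at chr1:203797273-203797572, held none of the 5 motifs searched. Among the TREX genes, the ETS core CCGGAAG was in the windows of ALYREF, THOC3, THOC5 and DDX39B, against 10.3% of all windows. AAGATGG was in the window of THOC2, the cAMP response element TGACGTCA in that of THOC1 (1.85% of all windows), and the NRF1 motif GCATGCG in that of THOC3 (3.91% of all windows). NXF1 had none of the 5. No match overlapped that of another motif in these windows, GCATGCG in THOC3 matched on both strands at overlapping letters, and a match to letters is not a binding site.

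Both SNP libraries were deeper than both control libraries. Summed gene counts were 5613144 and 6538701 without SNP and 7648309 and 8056550 with it, or 11.5% to 13.3% of the read total that the deposited RPKM values imply; what the other reads were is not given in the sources used here. A count of 3 corresponds to 0.372 to 0.534 CPM (counts per 1000000 gene counts). Of 9 markers of sympathoadrenal neuroblasts, the cell type of the line, 8 were present, and TH was at 0 in all 4 libraries. Their summed level was 2187 to 2249 CPM without SNP and 1730 to 1859 CPM with it, with members in opposite directions. DBH was at 623 and 720 CPM without SNP and 220 and 297 with it, and PHOX2A at 163 and 175 against 77.0 and 99.8. HAND2 was at 530 and 526 CPM against 681 and 721, and CHGA at 53.5 and 52.4 against 108 and 90.3. A mesenchymal list summed to 88.4 to 104 CPM without SNP and 90.4 to 92.9 CPM with it; COL3A1 was at 40.0 and 34.4 CPM against 59.9 and 59.2, and PDGFRB at 55.1 and 49.4 against 29.4 and 26.4. Immune, epithelial and glial lists each summed to at most 2.59 CPM. The retinoic acid response list summed to 6.00 to 6.20 CPM without SNP and 4.91 to 7.28 CPM with it, with CYP26A1 at 0 throughout. In bulk RNA, fewer cells of a type and less RNA per cell cannot be told apart. The labels do not say that replicates came from separate cultures, so every SD and p-value here measures only the spread between these samples, which may be technical.

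Levels and differences below are on the CPM scale, with library sizes scaled by TMM, unless TPM is named. By edgeR (quasi-likelihood F test, Benjamini-Hochberg), 26.2% of 14759 tested genes had an adjusted p-value under 0.05 between the groups and are referred to as called, 13.6% higher and 12.6% lower in SNP. In 64% of the genes tested, both SNP values lay on the same side of both control values. All 10 genes passed the filter on low counts. Of the 10, 4 were called, 3 higher (ZC3H11A, ALYREF and THOC3) and 1 lower (ZBED6); since the contrast was used in choosing them, nothing is read from that count.

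The ZC3H11A row had the widest difference of the 10. Control a gave it 380 counts and control b 464, while SNP a gave 3758 and SNP b 2520. Both SNP libraries were far above both control libraries, and SNP a was above SNP b. The level was 70.3 ± 16.8 CPM without SNP and 399 ± 103 CPM with it (SD, n = 2 each), a 5.69-fold difference. The log2 fold change was 2.51 (SE 0.155, 95% interval 2.19 to 2.83), at percentile 99.6 of all genes tested. Leaving out each library in turn gave 2.22 to 2.77.

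The ZBED6 row started from a much higher level and was lower in the SNP libraries. Control a had 3529 counts and control b 2731, and SNP a had 3032 and SNP b 3375. On the CPM scale both SNP libraries, at 381 in SNP a and 436 in SNP b, were below both control libraries, at 543 and 484. The means were 513 ± 41.9 and 409 ± 39.4 CPM (SD, n = 2 each), a log2 fold change of -0.33 (SE 0.0965). ZBED6 was no longer called without control a, where its log2 fold change was -0.25, or without SNP a, where it was -0.23.

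**Figure D2:**
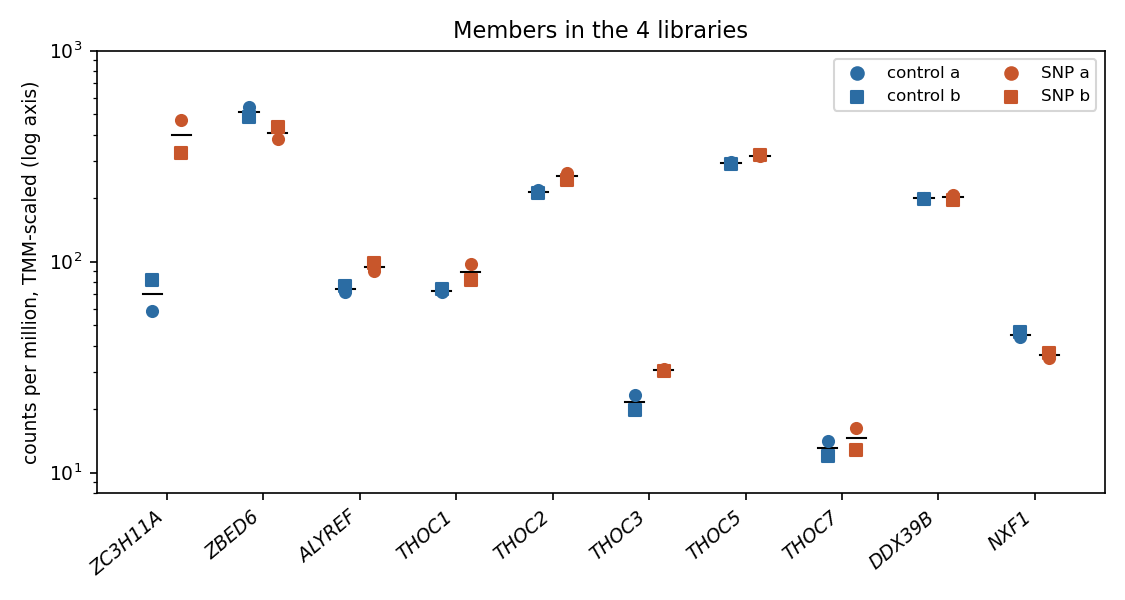
Level of each of the 10 genes in the 4 libraries, in TMM-scaled CPM on a log axis; circles are libraries a, squares libraries b, and short lines group means. ZC3H11A moves from 70.3 to 399 CPM and comes level with ZBED6, while the TREX genes stay within narrow ranges.

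The division of reads between the rows differed more than their total. ZC3H11A took 9.72% of the pair's counts in control a (95% Wilson interval 8.83 to 10.7) and 14.5% in control b (13.3 to 15.8). In SNP a its share was 55.3% (54.2 to 56.5) and in SNP b 42.7% (41.5 to 44.0). These intervals cover counting error only. Group means were 12.1 ± 3.40% and 49.0 ± 8.91% (SD, n = 2 each). Within each group the replicates' intervals did not overlap either. Replicates differed beyond counting error over all genes too, with a chi-square per degree of freedom of 2.91 for control a against b and 4.75 for SNP a against b.

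Counted as 1 unit, the locus showed a smaller difference. Summed over both rows, control a had 3909 counts and control b 3195, against 6790 for SNP a and 5895 for SNP b. Both SNP libraries were above both control libraries, with means of 583 ± 25.1 and 807 ± 63.7 CPM (SD, n = 2 each). This is a 1.38-fold difference, or a log2 fold change of 0.47 (SE 0.0897), at percentile 85.3 of all units tested. Set beside the rows taken apart, the sum was higher in SNP, as the ZC3H11A row was, but by 1.38-fold against 5.69-fold. The sum adds both rows and does not measure ZBED6 alone, whose own row was lower in SNP. Whether the private segments or the shared ones held the reads cannot be seen in counts per row and was not tested.

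**Figure D3:**
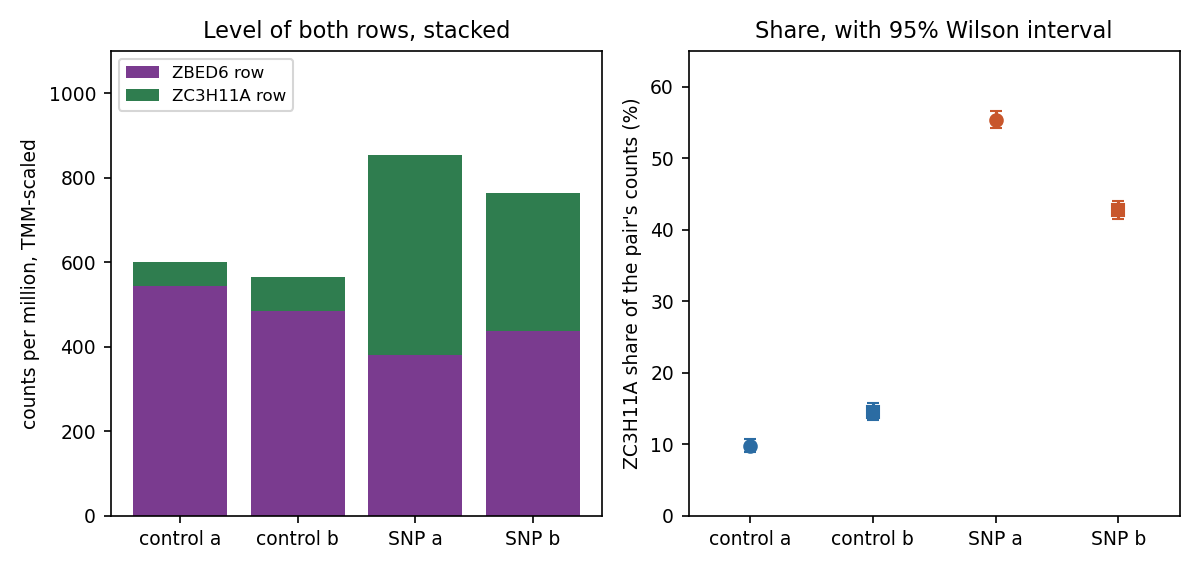
Left, TMM-scaled CPM of the ZBED6 and ZC3H11A rows, stacked, in each library; right, the ZC3H11A share of the counts of both rows in percent, with 95% Wilson intervals. The stacked total is 601 and 566 CPM in the control and 852 and 762 CPM in the SNP libraries, while the share goes from 9.72% and 14.5% to 55.3% and 42.7%.

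Other heavily overlapping gene pairs give a scale for this split. Among 74 pairs of tested genes that share at least 50% of the exonic bases of each, the median absolute difference between the log2 fold changes of the partners was 0.75. ZC3H11A and ZBED6 differed by 2.84, the third largest of the 74, and were the second most abundant pair by CPM. The only other pair that shares at least 90% of each gene, GALNT4 and its readthrough row POC1B-GALNT4, differed by 2.82, nearly as much. The retrocopy ZC3H11B, which shares 2.48% of the 75-base stretches of ZC3H11A, had 7, 2, 5 and 6 counts in control a, control b, SNP a and SNP b. Adding them to ZC3H11A left its log2 fold change at 2.50. AL365217.1, with 2.81% of these stretches, had no count in any library.

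By the authors' TPM, which is scaled by gene length, ZC3H11A was the lowest of the 10 in control libraries and the fourth in SNP libraries. The separate places of ZC3H11A and ZBED6 depend on how reads that fit both rows were assigned, which the sources used here do not state. The control order was ALYREF (223 ± 14.7 TPM), ZBED6 (194 ± 13.2), THOC5 (176 ± 0.278), DDX39B (134 ± 1.39), THOC2 (98.4 ± 0.801), THOC1 (42.3 ± 1.53), THOC7 (34.6 ± 3.48), NXF1 (34.4 ± 1.66), THOC3 (29.5 ± 3.03) and ZC3H11A (26.0 ± 6.53; SD, n = 2 each). THOC7 and NXF1 overlapped, as did THOC3 and ZC3H11A. In SNP libraries the order was ALYREF (307 ± 29.6 TPM), THOC5 (207 ± 8.41), ZBED6 (168 ± 21.7), ZC3H11A (159 ± 36.1), DDX39B (148 ± 0.343), THOC2 (127 ± 2.58), THOC1 (56.5 ± 5.07), THOC3 (45.4 ± 0.821), THOC7 (41.7 ± 5.79) and NXF1 (29.9 ± 2.19). There ZBED6, ZC3H11A and DDX39B overlapped their neighbours in the order, and so did THOC3 and THOC7. The summed TPM of ZC3H11A and ZBED6 was 225 and 215 in the control libraries and 337 and 317 after SNP, about the level of ALYREF in each group.

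Among genes averaging 20 CPM or more, PURPL, COL7A1 and KITLG had the pattern over the 4 libraries nearest to that of ZC3H11A, by Euclidean distance of centred log2 CPM over 8416 genes. PURPL, a long noncoding RNA induced by p53, was counted 47 and 57 times without SNP and 383 and 359 times with it (distance 0.345). COL7A1, a collagen chain, had 56 and 59 against 354 and 383 (distance 0.550), and KITLG, the ligand of the receptor KIT, had 90 and 87 against 496 and 476 (distance 0.607). In each of these, SNP a and SNP b lay closer together than they did for ZC3H11A. Nearest to ZBED6 were CCDC144NL-AS1, an antisense RNA (1324, 1014, 1132 and 1254 counts in control a, control b, SNP a and SNP b; distance 0.0120), RNASEH2C, a subunit of ribonuclease H2, and TPP1, a lysosomal protease. RNASEH2C shares 28.2% of its exonic bases with KAT5.

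The adaptor ALYREF (ENSG00000183684; chromosome 17, 81887844 to 81891586, minus strand), which bridges the helicase and the export receptor, was counted 465 and 435 times in control a and b and 717 and 762 times in SNP a and b. Both SNP libraries were above both control libraries. Levels were 74.3 ± 3.89 and 94.3 ± 6.02 CPM (SD, n = 2 each), a log2 fold change of 0.34 (SE 0.114). Of its exonic bases, 62 overlap ANAPC11, and no 75-base stretch of ALYREF occurs in another gene.

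The 5 THO subunits among the 10 genes (THOC1, THOC2, THOC3, THOC5 and THOC7) had log2 fold changes between 0.11 and 0.50. THOC1 (chromosome 18, 214520 to 268050, minus strand), a subunit of the THO complex, was counted 465 and 417 times without SNP and 774 and 632 times with it. Its levels did not overlap between groups, at 72.7 ± 1.64 and 89.5 ± 10.9 CPM (SD, n = 2 each), a log2 fold change of 0.30 (SE 0.119). THOC2 (chromosome X, 123600561 to 123733056, minus strand), the scaffold of the THO complex, was counted 1415 and 1192 times without SNP and 2098 and 1890 times with it. Again the groups did not overlap, at 214 ± 4.65 and 254 ± 13.4 CPM (SD, n = 2 each), a log2 fold change of 0.24 (SE 0.0960).

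THOC5 (chromosome 22, 29505879 to 29555216, minus strand), a THO subunit that contacts NXF1, was the most counted of the TREX genes, with 1930 and 1641 counts without SNP and 2515 and 2470 with it. Its groups were close but did not overlap, at 294 ± 4.44 and 318 ± 2.58 CPM (SD, n = 2 each), a log2 fold change of 0.11 (SE 0.0917). THOC7 (chromosome 3, 63833870 to 63863903, minus strand), a small subunit paired with THOC5, was counted 92 and 68 times without SNP and 130 and 99 times with it. Its groups overlapped, since control a lay above SNP b at 14.2 against 12.8 CPM. The log2 fold change was 0.15 (SE 0.214), and it was -0.04 without SNP a.

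THOC3 (chromosome 5, 175917873 to 176034680, minus strand), a WD-repeat subunit, was counted 152 and 112 times without SNP and 246 and 234 times with it. Its groups did not overlap, at 21.6 ± 2.51 and 30.6 ± 0.442 CPM (SD, n = 2 each), a log2 fold change of 0.50 (SE 0.165). Reads of THOC3 are uncertain, because 45.3% of its 75-base stretches also occur in AC106795.1. That row had 66, 95, 103 and 121 counts in control a, control b, SNP a and SNP b. The sum of both rows, an alternative chosen after seeing the data, had 218, 207, 349 and 355 counts in the same order, and its log2 fold change was 0.36 (SE 0.139), which was not called.

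DDX39B (chromosome 6, 31530219 to 31542448, minus strand), the helicase that loads ALYREF onto RNA, hardly differed. It was counted 1301 and 1125 times without SNP and 1648 and 1523 times with it, and its groups overlapped at 200 ± 0.640 and 202 ± 7.04 CPM (SD, n = 2 each). The log2 fold change was 0.02, with a 95% interval of -0.19 to 0.22. The readthrough row ATP6V1G2-DDX39B shares 2079 exonic bases with it and had 24, 35, 4 and 23 counts in control a, control b, SNP a and SNP b. With that row added, the log2 fold change of DDX39B was -0.01 (SE 0.0963). The paralog DDX39A, which can take the place of DDX39B, had a log2 fold change of -0.15 (SE 0.134) and was not called.

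NXF1 (chromosome 11, 62792123 to 62806302, minus strand), the export receptor, was lower in the SNP libraries, unlike ALYREF and the 5 THO subunits above. It was counted 286 and 261 times without SNP and 279 and 287 times with it, from SNP libraries of greater depth. Both SNP libraries were below both control libraries, at 45.1 ± 1.57 CPM in control and 36.1 ± 1.47 CPM in SNP (SD, n = 2 each). The log2 fold change was -0.32 (SE 0.137, 95% interval -0.61 to -0.04), and NXF1 was not called. No 75-base stretch of NXF1 or of THOC7 occurs in another gene.

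Taken by counts, 5 of these 8 TREX genes had both SNP values above both control values and 1 (NXF1) had both below, where 64% of all genes tested had groups that did not overlap. Their median log2 fold change was 0.20, beside a median of -0.004 over all genes tested. Of the 8, 2 were called, beside 26.2% of all genes tested, and nothing is read from that count. ALYREF was not called without control a (log2 fold change 0.29), control b (0.40) or SNP b (0.28), and THOC3 was not called without control a (0.62), control b (0.39) or SNP a (0.48). The excess of G over C in a gene's transcripts was high for the 2 called genes and lower for NXF1. Its median was 2.77 percentage points over the 10 genes, beside 1.04 over all genes tested. Whether it has a part in these calls was not tested. ALYREF and THOC3 have 5.09 and 5.23 percentage points more G than C, at percentiles 94.5 and 95 of the genes tested, and NXF1 has -0.53, at percentile 28.4. With per-library offsets on gene length and GC content alone, ALYREF was at 0.56 and THOC3 at 0.54, while THOC1 was at 0.13 and THOC2 at 0.09. With per-library offsets on gene length, GC content and this excess, the median of the 8 was 0.04, with a range of -0.18 (NXF1) to 0.15 (THOC3). ZC3H11A then had a log2 fold change of 2.30, ZBED6 of -0.50 and their sum of 0.28. With these offsets, of the 10 genes only ZC3H11A was called higher and only ZBED6 lower, beside 18.6% of all genes tested called in either direction.

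**Figure D4:**
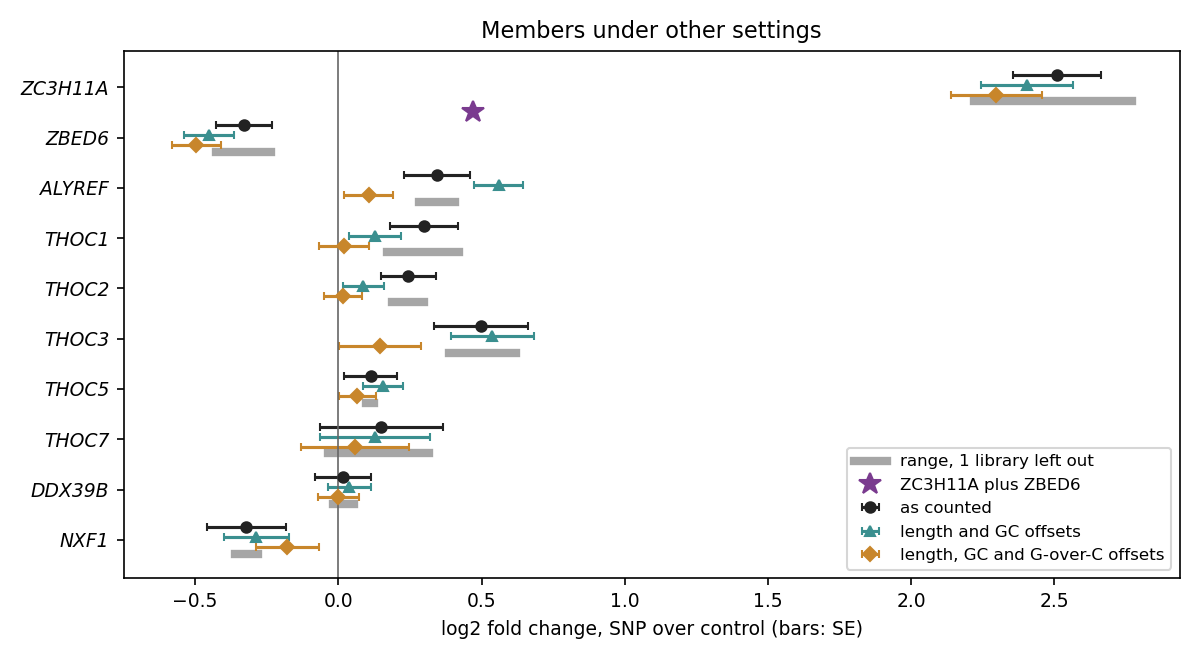
Log2 fold change of SNP over control for each gene, with SE bars, as counted and with offsets on gene length and base composition; grey bands give the range when 1 library is left out, and the star marks ZC3H11A and ZBED6 summed. The ZC3H11A row taken alone lies between 2.22 and 2.77 in the settings drawn, while the star lies at 0.47. The TREX genes draw toward 0 with the G-over-C offsets.

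The wider export pathway and nuclear RNA retention were read from 6 lists of 52 tested genes, chosen with earlier results of these data known. Of the 52, 24 (46.2%) were called, 18 higher and 6 lower, beside 26.2% of all genes. With the G-over-C offsets 15 (28.8%) were called, beside 18.6% of all genes. Among 12 other TREX subunits and adaptors, 6 were higher and 1 lower, with a median log2 fold change of 0.26 (0.19 with the offsets). NCBP2, a subunit of the nuclear cap-binding complex, rose from 52.4 ± 2.06 to 98.8 ± 21.5 CPM (SD, n = 2 each), a log2 fold change of 0.92 with an adjusted p of 5.5e-05 (edgeR quasi-likelihood, Benjamini-Hochberg). SRRT, which binds that complex, rose by 0.64 (log2), and CHTOP, FYTTD1, NCBP3 and ZC3H18 were the other higher genes. THOC6, the THO subunit outside the 10 genes, fell by 0.55, and it shares 14.0% of its exonic bases with HCFC1R1.

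Export receptors and cofactors gave 1 higher gene of 3 tested, with a median of 0.22 (-0.02 with the G-over-C offsets). NXT2, a paralog of the NXF1 partner NXT1, rose by 0.47 on the log2 scale. NXT1 itself had a log2 fold change of -0.72 and XPO1 one of 0.22, and neither was called. Of the 6 genes of TREX-2, which ties transcribed genes to the pore, 2 were higher, with a median of 0.35 (0.17 with the G-over-C offsets). CETN3, a centrin, rose by 1.01 from 7.54 ± 0.647 to 15.2 ± 4.91 CPM (SD, n = 2 each), and SEM1, a small acidic subunit that is also part of the proteasome, rose by 0.36. With the offsets their log2 fold changes were 0.28 and 0.16, and neither was called.

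Pore and release factors went the other way in their median, at -0.23 over 12 genes (-0.12 with the G-over-C offsets), with 1 higher and 3 lower (2 and 2 with the offsets). TPR, the filament protein of the nuclear basket, rose by 0.56 on the log2 scale, from 469 ± 31.6 to 692 ± 61.9 CPM (SD, n = 2 each). NUP62 fell by 0.63 and NUP214, on the cytoplasmic face, fell by 0.46, and the third gene lower in SNP was NUP98. With the G-over-C offsets, NUP214 had a log2 fold change of -0.09 and was no longer called.

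Of 9 exon junction complex genes, 3 were higher and 1 lower, with a median of 0.16. With the G-over-C offsets 1 was called, higher, and the median was 0.06. PNN rose by 1.10 from 41.0 ± 1.63 to 87.8 ± 12.2 CPM (SD, n = 2 each; adjusted p of 4.1e-06, edgeR quasi-likelihood, Benjamini-Hochberg), SAP18 by 0.64 and RBM8A by 0.52, while RNPS1 was lower. Among 10 genes of nuclear poly(A) RNA retention and decay, which holds back and degrades unexported RNA, 5 were higher and 1 lower, with a median of 0.27 (2, 1 and 0.14 with the offsets). PABPN1, the nuclear poly(A)-binding protein, rose by 0.91, and ZFC3H1, a partner of the helicase MTREX, rose by 0.54. PABPN1 shares 16.8% of its exonic bases with the readthrough row BCL2L2-PABPN1, and RBM8A shares 15.4% of its own with GNRHR2. ZC3H3 fell by 0.58.

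Outside the export lists, the CCCH zinc finger relatives of ZC3H11A gave 4 higher and 1 lower of 14 tested, with a median of 0.13. That is 35.7% called, beside 26.2% of all genes tested, and nothing is read from so short a list. With the G-over-C offsets 3 were higher and 1 lower, with a median of 0.15, beside 18.6% of all genes called. ZC3H15 rose by 1.18 from 31.6 ± 1.86 to 71.6 ± 14.0 CPM (SD, n = 2 each), ZC3H13, a cofactor of mRNA m6A methylation, rose by 0.79, and ZC3H12B fell by 1.04. None of the 7 tested ZBED relatives was called by edgeR, DESeq2 or limma-voom. Beside the 26.2% of all genes called by edgeR, nothing is read from so few genes. Of the 7, 1 had an unadjusted p under 0.05 in edgeR, and their median was 0.10. IGF2, the gene that ZBED6 represses, was counted 325 and 225 times without SNP and 247 and 269 times with it. It fell by 0.45 on the log2 scale (SE 0.149; adjusted p of 0.0288, edgeR quasi-likelihood, Benjamini-Hochberg). With the G-over-C offsets it was 0.20 and not called, and IGF2 has -10.6 percentage points of G over C. IGF2 shares 20.9% of its exonic bases with the row INS-IGF2. That row had 0, 0, 3 and 0 counts in control a, control b, SNP a and SNP b.

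**Figure D5:**
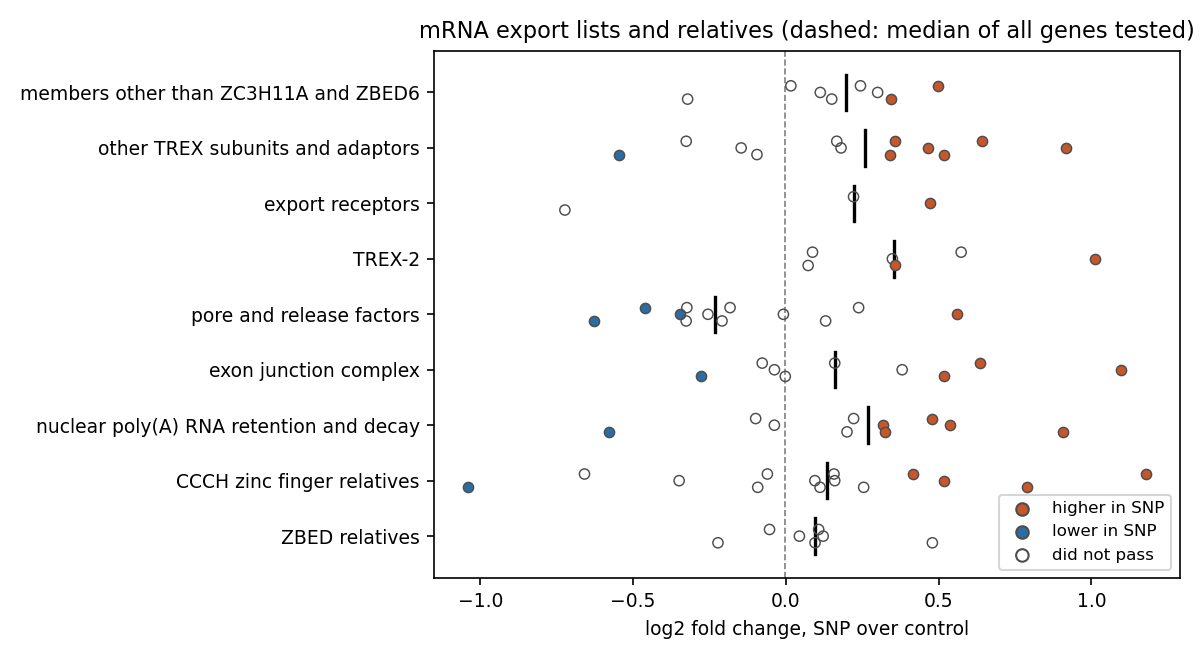
Log2 fold change of SNP over control for each tested gene of the export lists, of the CCCH and ZBED relatives and for the 8 TREX genes; filled points were called higher or lower, open points were not, bars are list medians and the dashed line is the median of all genes tested. Medians run from -0.23 for pore and release factors to 0.35 for TREX-2, as counted, with no offsets.

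Of the 19 list genes named above for the size of their change, leaving out 1 library ended the call of 6 without control a, 4 without control b, 7 without SNP a and 1 without SNP b. THOC6, NXT2 and SEM1 lost it in 3 of these 4 cases. NCBP2, SRRT, TPR, NUP62, NUP214, PNN, RBM8A, PABPN1, ZFC3H1, ZC3H13 and ZC3H15 kept it in all 4. CETN3, IGF2, NUP214, RBM8A, SAP18, SEM1 and ZC3H3 were not called with the G-over-C offsets, and 7 of the 19 were not called by DESeq2 (IGF2, NXT2, SAP18, SEM1, THOC6, ZC3H12B and ZC3H3). Among the genes that stayed called, the offsets moved PNN to 0.40, NCBP2 to 0.43, TPR to 0.23 and PABPN1 to 0.54. They moved ZFC3H1 to 0.35, ZC3H15 to 0.69, ZC3H13 to 0.41, NUP62 to -0.32, SRRT to 0.53 and ZC3H12B to -0.91. THOC6, at -0.82, and NXT2, at 0.52, also stayed called and had larger changes than without the offsets. With offsets on gene length and GC content alone their changes were smaller, at -0.34 for THOC6 and 0.30 for NXT2. In that setting neither was called, and neither were IGF2 and SEM1. Markers of the line moved with the groups (2187 to 2249 against 1730 to 1859 CPM in sum), and their part in these results was not tested.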

How the data were processed

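RNA sequencing of 4 SH-SY5Y libraries was analysed from the deposited gene tables; groups came from the labels' agent and replicate letters from the titles. The 10 genes and the lists were chosen with earlier results of these data known. Per the file headers, the authors deposited whole-number counts per gene ("Expression value"), TPM and RPKM. The submitters' processing notes name GRCh38; the aligner, counter and use of strand are not given in the sources used here. Of 58243 identifiers, 57980 were found in GENCODE 29, and the ratio of count to RPKM gave the exon length of that release for 88.8% to 89.0% of genes above 50 counts. Exon overlaps were counted on either strand.

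Counts were fitted with edgeR 4.0.16 (filterByExpr, minimum count 10, minimum total count 15; TMM; quasi-likelihood test) in R 4.3.3, with Benjamini-Hochberg adjustment over all 14759 genes; called means an adjusted p under 0.05. The SE is the log2 fold change over the root of the F statistic. Summed units replaced their rows in the same fit. List genes were named by rule: up to 3 per list, called, with the widest change; likeness used genes of at least 20 CPM. Other called list genes were named after their values were seen. Alternatives were other filters (a count above 0; a mean of 50), DESeq2 size factors, total counts, DESeq2 1.42.0, limma-voom (limma 3.58.1), the replicate block, lowess offsets on length, GC and G-over-C content (span 0.5, 3 iterations), stricter thresholds and each library left out. Scripts were tested on simulated counts. Totals of 5613144 to 8056550 counts per library limit precision. The Wilson intervals and the floor of 3 counts cover counting error only, while intervals on log2 fold changes use the SE of the edgeR fit.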

Additional observations from a re-analysis of the deposited data

How the results depend on the processing

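The count of genes called, 3861, was 2415 with DESeq2's Wald test, 2224 at an adjusted p under 0.01, 647 with a log2 change of 1 or more in either direction, and 2447 to 4152 with 1 library left out. The count over all 9 lists, 30, was 19 with DESeq2, 19 with the offsets on length, GC and G-over-C content, 16 at 0.01, 4 with the fold threshold, and 17 to 34 with 1 library left out. A stricter threshold lowers a count by construction, and for the others the cause was not tested. With the G-over-C offsets ZBED6 moved to -0.50 and IGF2 reversed to 0.20. The log2 fold change of ZC3H11A and ZBED6 summed was 0.47, a value for the locus and not for either gene alone. Its sign is opposite to that of the ZBED6 row. The summed value moved to 0.35 with length and GC offsets and to 0.28 with the G-over-C offsets. With length and GC offsets plus the replicate block it was 0.35.

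With the replicate block, 4487 of 14759 genes were called, and 31 of 74 in the 9 lists. Of the 10 genes, 5 were then called higher and 1 lower (3 and 1 without it, and 1 and 1 with DESeq2). Differences between letters a and b in one group and the other correlated at 0.0601 over genes, and 2 letters cannot show pairing. THOC7 and THOC3 had the fewest counts of the 10 genes, 68 to 246 per library, and the widest SEs.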
